A study of Mus musculus with 6 samples.

Results

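Nelfe, Cpsf7, Nxf1 and Mov10 encode proteins that act on messenger RNA from its synthesis to its fate outside the nucleus. A further gene, Ranbp3, encodes a protein that works with an export receptor of proteins and some RNAs. Every deposited splicing event of these 5 genes was taken by its gene symbol and numbered by its order within the gene. There were 8 such events in each of the 6 libraries, of 4777 to 4949 events per library. All 8 could be matched between the libraries by gene and row order, as could 4658 events of 2685 genes in the whole series. Such matching does not establish that a row is the same splicing event in every library. Every comparison of Nelfe and Ranbp3 events, and every count over the 8 events, carries this limit. The genes were chosen by inclusion values of these libraries, with the results of all 3 comparisons known; which values guided the choice is not recorded. Their differences between groups are therefore given as a description, and whether an event passed the test across all events is stated for orientation only.

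The cells were primary mouse medullary thymic epithelial cells (mTECs), which present self-antigens to developing T cells, and were sorted before culture as CD45- EpCAM+ Ly51- I-A/E+. They were cultured on a fibrin gel containing human dermal fibroblasts and infected with pLKO.3G lentiviruses carrying an eGFP cassette. One group carried a hairpin RNA against Raver2, which binds RNA and cooperates with the splicing repressor PTB. Another carried a hairpin against Setd2, the methyltransferase that marks histone H3 along transcribed genes, and the control group (Ctr) carried a hairpin against bacterial LacZ. Each group had 2 libraries; in the knockdowns library 1 carried hairpin sh1 and library 2 hairpin sh2. The labels of the Ctr libraries do not say what distinguishes them. All groups shared the co-culture, the infection and the sort for viable I-A/E+ GFP+ cells 5 days later, and no uninfected group was analysed here. The age, sex and strain of the mice, and whether animals were pooled, were not stated in the labels.

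In the nucleus, the negative elongation factor NELF holds RNA polymerase II near the start of genes until it is released into productive elongation. Cleavage factor Im then helps to select the site at which the new transcript is cut and polyadenylated, and export receptors carry the finished messenger ribonucleoprotein through the nuclear pore. Transcripts of such RNA processing factors are themselves spliced in alternative ways, and some of the alternative forms carry premature stop codons or retained introns.

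The value deposited for an event is its inclusion fraction, from 0 (never included) to 1 (always included). It carries no read count, so depth is unknown for every value, and a fraction is not an expression level. The event is named by its gene alone, so its exon or splice site is not known. What the GENCODE M21 annotation of mm10 lists for each gene is given here as context, and no event was assigned to any of these forms. Nelfe (chromosome 17, 34850391 to 34856372, plus strand) has 7 annotated transcripts, 3 alternative ends of its non-coding first exon and 3 introns that another transcript retains. Cpsf7 (chromosome 19, 10525266 to 10547653, plus strand) has 8 transcripts and 3 cassette exons, that is, internal exons that another transcript skips. Nxf1 (chromosome 19, 8757073 to 8770922, plus strand) has 10 transcripts, 3 cassette exons and 2 retained introns. Ranbp3 (chromosome 17, 56673294 to 56711764, plus strand) has 8 transcripts, 3 cassette exons and 7 retained introns. Mov10 (chromosome 3, 104794836 to 104818563, minus strand) has 9 transcripts, no cassette exon and 2 retained introns.

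Some annotated alternatives of Nxf1 and Cpsf7 that alter coding sequence are shown, because these forms differ in the protein they can encode. In Nxf1, an annotated transcript retains an intron of 1765 bases and reads on into it for 241 coding bases. An intron of human NXF1 is known to hold a constitutive transport element, which lets transcripts that keep the intron leave the nucleus. The first sequence below ends its exon just before the capitals, which mark the first 2 bases of this intron (chr19:8765012-8765071), and the second is the coding exon of 37 bases that follows the intron (chr19:8766797-8766833). For Cpsf7, the next pair gives the start of cassette exon A (chr19:10532131-10532163) and cassette exon B (chr19:10532258-10532290), down to the in-frame stop codon in capitals. The transcripts with these exons are annotated as targets of nonsense-mediated decay. The last shows, in capitals, the 27 bases (9 codons, which keep the reading frame) by which a Cpsf7 exon is longer when the later of its alternative ends is used (chr19:10533430-10533465). All are from GENCODE M21 transcripts on the plus strand of mm10, written 5′ to 3′.
Nxf1 start of retained intron: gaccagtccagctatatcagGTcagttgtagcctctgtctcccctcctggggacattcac
Nxf1 next exon: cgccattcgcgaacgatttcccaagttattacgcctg
Cpsf7 cassette exon A: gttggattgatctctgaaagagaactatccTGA
Cpsf7 cassette exon B: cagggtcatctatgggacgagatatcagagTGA
Cpsf7 longer exon end: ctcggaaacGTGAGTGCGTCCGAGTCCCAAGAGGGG

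Neither target could be checked, since Raver2 and Setd2 had no event in any library. Of the cell type markers, events were listed for 2 of 10 mTEC genes (Aire and Cd74), 2 of 10 fibroblast genes (Fn1 and Postn) and 4 of 10 leukocyte genes (Cd68, Cd8a, Lck and Ptprc), and a listed event does not measure how many such cells there were. Nothing in the labels ties the libraries of a group to separate cultures or animals, so the p-values rest on a spread that may be technical and that, in the knockdowns, includes the difference between hairpins. The fit was limma across all 4658 events, with Benjamini-Hochberg adjustment and a threshold of 0.05. It called 113 events for Raver2 knockdown against Ctr, 104 for Setd2 knockdown against Ctr and 34 between the knockdowns.

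Nelfe encodes the RNA-binding subunit of NELF. Inclusion of Nelfe event 1 was 0.419 and 0.475 in Raver2 knockdown libraries, 0.456 and 0.409 in Setd2 knockdown libraries, and 0.254 and 0.224 in Ctr libraries. All 4 knockdown libraries lay above both Ctr libraries, and the knockdown groups overlapped each other. The difference from Ctr was 0.208 ± 0.0522 (SE of the fit) for Raver2 knockdown and 0.193 ± 0.0522 for Setd2 knockdown. The smallest gap between a Raver2 knockdown and a Ctr library was 0.166, or 2.99 times the widest range within either group. For Setd2 knockdown the gap was 0.155, or 3.32 times that range.

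Nelfe event 2 had inclusion of 0.252 and 0.232 under Raver2 knockdown, 0.293 and 0.212 with the Setd2 hairpins, and 0.161 and 0.168 in Ctr. It was again higher in every knockdown library than in both Ctr libraries. The Setd2 hairpins differed from each other by 0.0803 in this event, more than the gap of 0.0448 that separated their group from Ctr. The difference from Ctr was 0.0883 ± 0.0355 (SE) for Setd2 knockdown, and 0.0481 without its library 1. Nelfe event 3 went the other way, with 0.318 and 0.2503 under Raver2 knockdown, 0.331 and 0.2804 with the Setd2 hairpins, and 0.361 and 0.410 in Ctr. The gaps were narrow here, at 0.0424 for Raver2 knockdown and 0.0301 for Setd2 knockdown, both smaller than the widest range within a group. The difference from Ctr was -0.101 ± 0.05204 (SE) for Raver2 knockdown, and -0.0671 without its library 2.

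As numbered by row, the order of the Nelfe events by inclusion differed between knockdown and Ctr libraries. Events were matched by row order alone, and whether the Nelfe rows kept the same order in every library was not tested. Mean inclusion of event 3 was 0.284 under Raver2 knockdown and 0.306 under Setd2 knockdown, beside 0.239 for event 1 in Ctr. In those knockdown groups event 1 averaged 0.447 and 0.432, beside 0.386 for event 3 in Ctr. Event 1 was 1.32 and 1.90 times event 3 in Raver2 knockdown libraries and 1.38 and 1.46 times event 3 in Setd2 knockdown libraries, against 0.703 and 0.547 times in Ctr libraries. Event 1 thus had the highest inclusion of the 3 in each knockdown library, and event 3 had it in each Ctr library. The fractions of the 3 events summed to 0.9901 and 0.957 under Raver2 knockdown, 1.079 and 0.902 with the Setd2 hairpins, and 0.775 and 0.802 in Ctr. The sum exceeded 1 only in Setd2 knockdown library 1. How the fraction was computed and its error are not known, so the sums do not settle how the 3 events relate. None of the Nelfe events passed the test in either knockdown. The other subunits of NELF, Nelfa, Nelfb and Nelfcd, had no listed event.

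**Figure D1:**
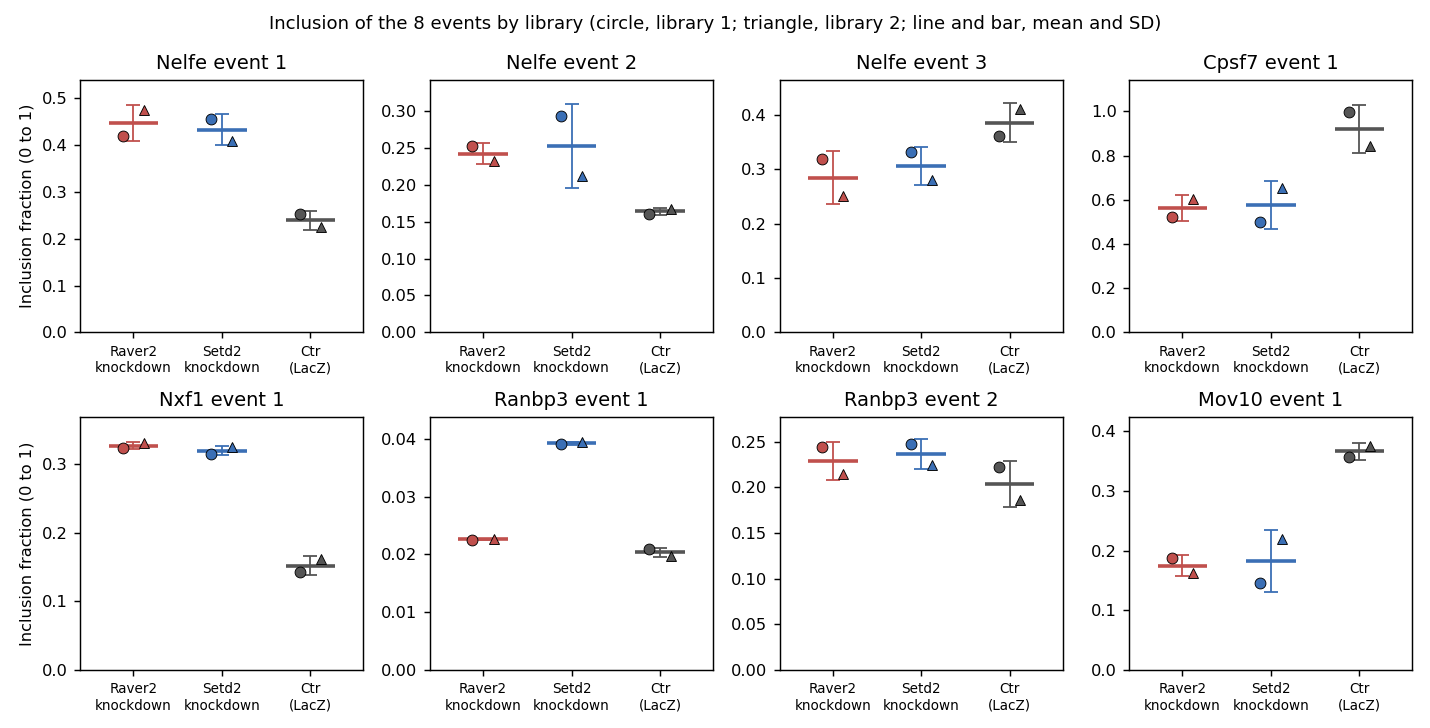
Inclusion fraction (vertical axis, 0 to 1, with its own scale in each panel) of the 8 events in Raver2 knockdown, Setd2 knockdown and Ctr libraries. Points are libraries, lines and bars are mean and SD (n = 2 per group); in Nxf1 the 4 knockdown libraries sit between 0.315 and 0.331, above the Ctr libraries at 0.142 and 0.162.

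Cpsf7 encodes a large subunit of cleavage factor Im, which binds upstream of polyadenylation sites. Its single event had inclusion of 0.522 and 0.604 in Raver2 knockdown libraries, 0.499 and 0.651 in Setd2 knockdown libraries, and 0.998 and 0.843 in Ctr libraries. All knockdown libraries were below both Ctr libraries, while the knockdown groups overlapped. This was the largest difference among the 8 events, at -0.357 ± 0.0872 (SE) for Raver2 knockdown and -0.345 ± 0.0872 for Setd2 knockdown. It also had the widest spread between Ctr libraries, 0.155, and a Ctr library near full inclusion. By absolute difference it ranked 456 of 4658 events under Raver2 knockdown and 486 under Setd2 knockdown. The event did not pass the test in either. Cpsf7 overlaps Tmem216 by 13789 bases and Sdhaf2 by 877 bases on the opposite strand, exons included. The library kits named in the labels do not mark strand, so reads of these genes cannot be told apart by strand where their exons overlap. The other 4 genes overlap no annotated gene.

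Nxf1 encodes the main export receptor of bulk messenger RNA. Inclusion of its event was 0.324 and 0.331 in Raver2 knockdown libraries, 0.315 and 0.325 in Setd2 knockdown libraries, and 0.142 and 0.162 in Ctr libraries. The 4 knockdown libraries lay close together and above both Ctr libraries. Raver2 knockdown averaged 0.327 ± 0.00482 (SD, n = 2) and Setd2 knockdown 0.3201 ± 0.00698, against 0.152 ± 0.0137 in Ctr, which made them 2.15 and 2.11 times the Ctr mean. The gap to the nearest Ctr library was 8.39 times the widest range within a group for Raver2 knockdown and 7.94 times for Setd2 knockdown.

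Even so, the Nxf1 event did not pass the test over all events in either knockdown. The differences were 0.175 ± 0.0283 (SE) for Raver2 knockdown and 0.168 ± 0.0283 for Setd2 knockdown. With the trend of the variance left out of the fit it passed in both, the only one of 11 other settings that called it. By absolute difference, the event ranked 875 of 4658 under Raver2 knockdown and 953 under Setd2 knockdown.

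Ranbp3 encodes a Ran-binding protein that works with the export receptor Xpo1, which carries proteins and some RNAs out of the nucleus. Inclusion of Ranbp3 event 1 was 0.0226 in both Raver2 knockdown libraries, 0.0391 and 0.0395 in Setd2 knockdown libraries, and 0.0210 and 0.0198 in Ctr libraries. The Setd2 knockdown libraries stood apart from the other 4, which all held between 0.0198 and 0.0226. Inclusion rose by 0.0190 ± 0.00118 (SE) under Setd2 knockdown, to 1.93 times the Ctr mean, and this event alone among the 8 passed the test. The step is small on the scale from 0 to 1, ranking 3023 of 4658 events by absolute difference. Under Raver2 knockdown the difference from Ctr was 0.00224 ± 0.00118, which did not pass, although the libraries did not overlap.

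Ranbp3 event 1 was also the only one of the 8 called between the knockdowns, with 0.0226 under Raver2 knockdown and 0.0393 under Setd2 knockdown on average, a difference of -0.0167 ± 0.00118 (SE). The replicates of this event were close, with SDs of 3.76e-05 under Raver2 knockdown, 0.000261 under Setd2 knockdown and 0.000837 in Ctr. The call of Setd2 knockdown against Ctr was kept in 3 of 10 other settings. It was lost on the arcsine scale, without the variance trend, with only the 4 libraries compared, among events from 0.01 to 0.99, without either Raver2 knockdown library and without Setd2 knockdown library 1, with differences of 0.0184 to 0.0196 when a library was left out. The call between the knockdowns was kept in 3 of 11 other settings and lost when any knockdown library was left out, with differences of -0.0169 to -0.0165.

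Ranbp3 event 2 showed the least separation of the 8. It had 0.244 and 0.214 under Raver2 knockdown, 0.248 and 0.224 with the Setd2 hairpins, and 0.222 and 0.186 in Ctr. Raver2 knockdown overlapped Ctr, and the gap between Setd2 knockdown and Ctr was 0.00263. The differences of 0.0250 ± 0.0268 (SE) and 0.0322 ± 0.0268 were about as large as their errors, and neither passed. Without Ctr library 1 they were 0.0429 for Raver2 knockdown and 0.05003 for Setd2 knockdown, and without Ctr library 2 they were 0.00721 for Raver2 knockdown and 0.0144 for Setd2 knockdown. The Raver2 knockdown difference was 0.0101 without its library 1 and 0.0399 without its library 2, and the Setd2 knockdown difference was 0.0205 without its library 1. Between the knockdowns, event 2 overlapped and was not called, with a difference of -0.00717 ± 0.0268 (SE). That SE is larger than the difference of -0.0167 in event 1, so a shift of that size could not be seen in event 2. Whether the Ranbp3 events differed in pattern was not tested.

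Mov10 encodes an RNA helicase that associates with Argonaute proteins and restrains retrotransposons. Its event had inclusion of 0.187 and 0.162 in Raver2 knockdown libraries, 0.146 and 0.219 in Setd2 knockdown libraries, and 0.357 and 0.376 in Ctr libraries. All knockdown libraries lay below both Ctr libraries, and the Raver2 knockdown values lay within the range of the Setd2 hairpins. The mean was 0.476 times that of Ctr under Raver2 knockdown and 0.498 times under Setd2 knockdown, with differences of -0.192 ± 0.0368 (SE) and -0.184 ± 0.0368. The gap to the nearest Ctr library was 6.72 times the widest range within a group for Raver2 knockdown, and 1.86 times for Setd2 knockdown, where the hairpins differed by 0.0737. Neither difference passed the test.

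**Figure D2:**
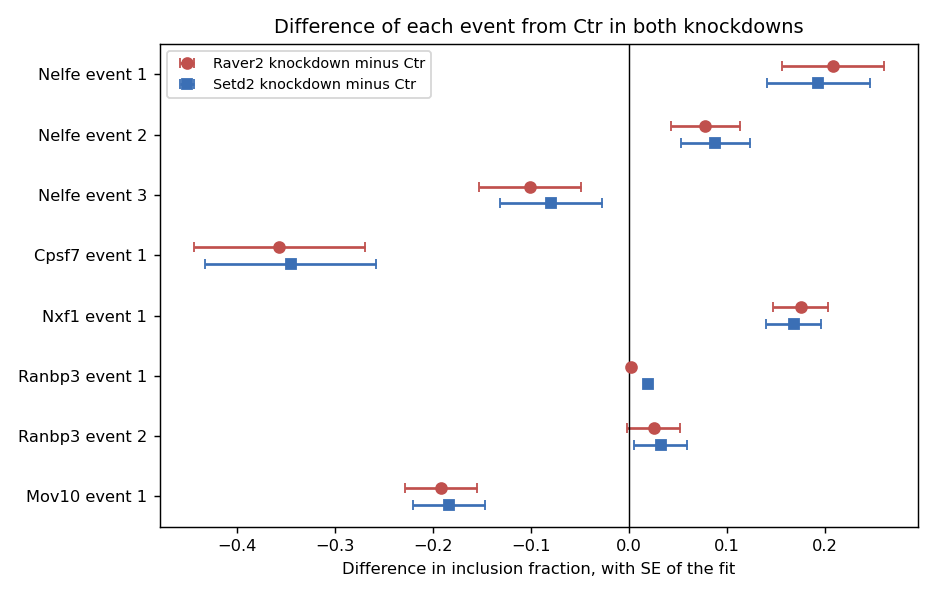
Difference in inclusion fraction from Ctr (horizontal axis) for each of the 8 events, circles for Raver2 knockdown and squares for Setd2 knockdown, with the SE of the fit as bars. The difference of Cpsf7 is -0.357 and -0.345 and that of Nxf1 is 0.175 and 0.168, and the pair of symbols of an event differs by more than its SE only for event 1 of Ranbp3, at 0.00224 and 0.0190.

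Counted together, none of the 8 events passed for Raver2 knockdown against Ctr, where 2.43% of all events did (limma). At an unadjusted p under 0.05 there were 4 of 8, against 12% of all events. For Setd2 knockdown against Ctr, 1 of 8 passed, a higher one, where 2.23% of all events did and 0.88% were called higher; 5 of 8 had an unadjusted p under 0.05, against 11.6%. Between the knockdowns 1 of 8 was called, as lower under Raver2 knockdown. Of all events 0.73% were called there, 0.408% higher and 0.322% lower, and 6.12% had an unadjusted p under 0.05.

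Raver2 knockdown and Ctr libraries did not overlap in 7 of 8 events, 4 higher and 3 lower, against 44% of all events (20.7% higher and 23.4% lower). Setd2 knockdown and Ctr libraries did not overlap in any of the 8, 5 higher and 3 lower, against 42.5% of all events (21.2% higher and 21.3% lower). The knockdowns were apart from each other in 1 of 8, which was lower under Raver2 knockdown, against 33.8% of all events (15.3% higher and 18.4% lower). All 4 knockdown libraries lay on 1 side of both Ctr libraries in 7 of the 8 events, 4 above (11.9% of all events) and 3 below (12.3%), or 24.2% of all events in either direction. Because the genes were chosen with these values known, nothing is read from these counts.

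The size of the differences can be set beside the series in the same way. The genes were chosen with these values known, so nothing is read from these sizes either. The median absolute difference over the 8 events was 0.138 for Raver2 knockdown and 0.128 for Setd2 knockdown, against 0.0423 and 0.0412 over all events. Between the knockdowns it was 0.0110 over the 8 events, against 0.0261 over all events. The signed medians were 0.0136 for Raver2 knockdown and 0.0256 for Setd2 knockdown, as 5 events had a positive and 3 a negative difference in each. These comparisons share their Ctr libraries, and their values for an event are not independent of each other. Only 1 of the 8 events, that of Cpsf7, had a library below 0.01 or above 0.99, whereas 2658 of all 4658 events did. The medians of the 8 events and of all events therefore do not compare like with like.

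**Figure D3:**
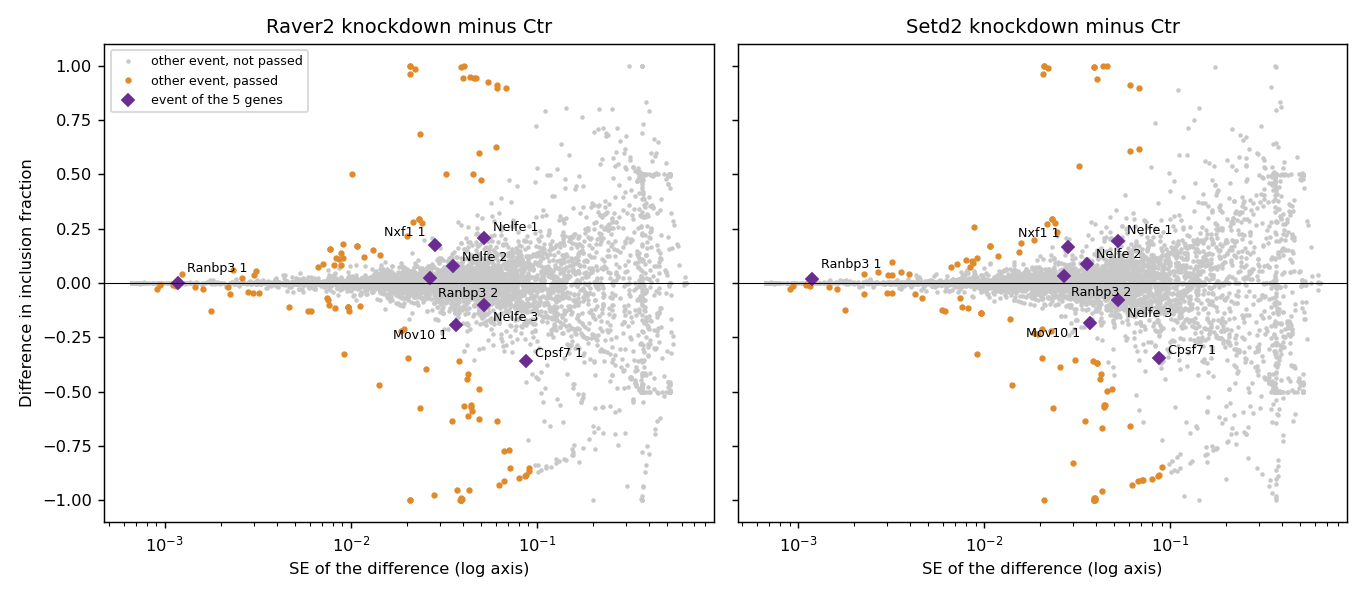
Difference in inclusion fraction (vertical axis) against its SE (horizontal axis, log scale) for all 4658 events, with Raver2 knockdown minus Ctr on the left and Setd2 knockdown minus Ctr on the right. Diamonds are the 8 events, labelled by gene and event number, and orange points are other events that passed; of the 8, only event 1 of Ranbp3 passed, in Setd2 knockdown, where it lies at 0.0190 with an SE of 0.00118.

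For each gene, the event that ranged most across the 6 libraries was compared with 2796 to 2799 events of other genes that ranged by at least 0.1. Likeness was the root mean square difference between events after each was centred on its own mean over the 6 libraries. The event nearest to that of Nxf1 was event 6 of Ank1, an ankyrin of the membrane skeleton, at 0.00513, and its inclusion was 1 in all knockdown libraries against 0.814 and 0.842 in Ctr. Event 1 of Sptan1, a spectrin, followed at 0.0125. Nearest to Nelfe event 1 were event 1 of Fyb, an adaptor of T cell receptor signalling, at 0.0209 and event 3 of Eif4a2, a translation initiation helicase, at 0.0230. Nearest to Mov10 were event 4 of Gpm6b, a membrane glycoprotein, at 0.0210 and event 1 of Tsc2, which restrains mTOR signalling, at 0.0213. For Cpsf7, event 3 of Smox, a polyamine oxidase, stood at 0.0537 and event 1 of Aatk, a kinase, at 0.0580. The measure is not scaled to range, and Cpsf7 ranged by 0.499, the most of these genes, so its distances do not compare directly with theirs. Ranbp3 event 2, which ranged by only 0.0618, was nearest to event 1 of Ppfibp2 at 0.0176 and event 2 of Tcf4, a transcription factor, at 0.0209. Events as flat as this one were left out by the minimum range of 0.1, so no likeness of pattern is read from these matches.

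Other genes of the same steps were drawn from 4 lists of textbook members, and 38 of them had 60 events. No event of theirs passed for Raver2 knockdown against Ctr (limma; 0 had an unadjusted p under 0.05), for Setd2 knockdown against Ctr (1 had) or between the knockdowns (0 had). In the background, 1.01% of all events were called higher and 1.42% lower for Raver2 knockdown, and 0.88% and 1.35% for Setd2 knockdown. Between the knockdowns 0.73% of all events were called. The shares of all events with an unadjusted p under 0.05 were 12%, 11.6% and 6.12% in the same order of comparisons. As so few of all events were called, the absence of calls among 60 events is not read as a result about the lists. The 60 events had a median absolute difference of 0.0213 for Raver2 knockdown and 0.0206 for Setd2 knockdown. The event closest to the threshold was event 1 of Cnot2, a subunit of the deadenylase complex, under Setd2 knockdown, with a mean of 0.830 ± 0.0243 (SD, n = 2) against 0.702 ± 0.0310 in Ctr (limma, adjusted p = 0.199).

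Among 9 events of 7 elongation genes, the largest statistics were those of the kinase genes Cdk12 and Cdk13 for Raver2 knockdown (limma, adjusted p = 0.712 and 0.741) and those of Ints3 and Mllt3 for Setd2 knockdown (limma, adjusted p = 0.706 and 0.768). Cdk12 showed how wide the replicates could lie, with 0.965 and 0.516 in Raver2 knockdown libraries, 0.336 and 0.531 in Setd2 knockdown libraries, and 0.00213 and 0.639 in Ctr libraries. Among 9 events of 6 cleavage and polyadenylation genes, Cpsf1, the largest subunit of the cleavage and polyadenylation specificity factor, had 0.940 and 0.950 under Raver2 knockdown, 0.9903 and 0.936 with the Setd2 hairpins, and above 0.99 in both Ctr libraries, without passing (limma, adjusted p = 0.434 and 0.678). Fip1l1, Cpsf4 and Cstf2 were the other leading genes of this list. Their smallest adjusted p-values were 0.584, 0.676 and 0.979 over the comparisons in which they led (limma).

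Among 20 events of 12 export genes, Nup88, Xpo1, Rcc1 and Thoc7 led without passing (limma, smallest adjusted p = 0.468, 0.537, 0.540 and 0.964). Xpo1, the partner of Ranbp3, had 0.0781 and 0.0801 under Raver2 knockdown and 0.119 and 0.0726 under Setd2 knockdown, against 0.115 and 0.126 in Ctr. Nxf2, a relative of Nxf1, was singled out after its values were seen for its difference from Ctr of -0.500 ± 0.441 (SE) under Raver2 knockdown, which did not pass (limma, adjusted p = 0.749). Its event was below 0.01 in both Raver2 knockdown libraries and 0.943 and 0.282 in Setd2 knockdown libraries, while 1 Ctr library was below 0.01 and the other above 0.99. Among 22 events of 13 genes of RNA helicases, silencing and decay, Fxr1, Cnot2 and Ddx6 led (limma, smallest adjusted p = 0.414, 0.199 and 0.522). Fxr1 event 2 had 0.298 and 0.285 under Raver2 knockdown and 0.371 and 0.3898 under Setd2 knockdown, against 0.469 and 0.402 in Ctr.

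**Figure D4:**
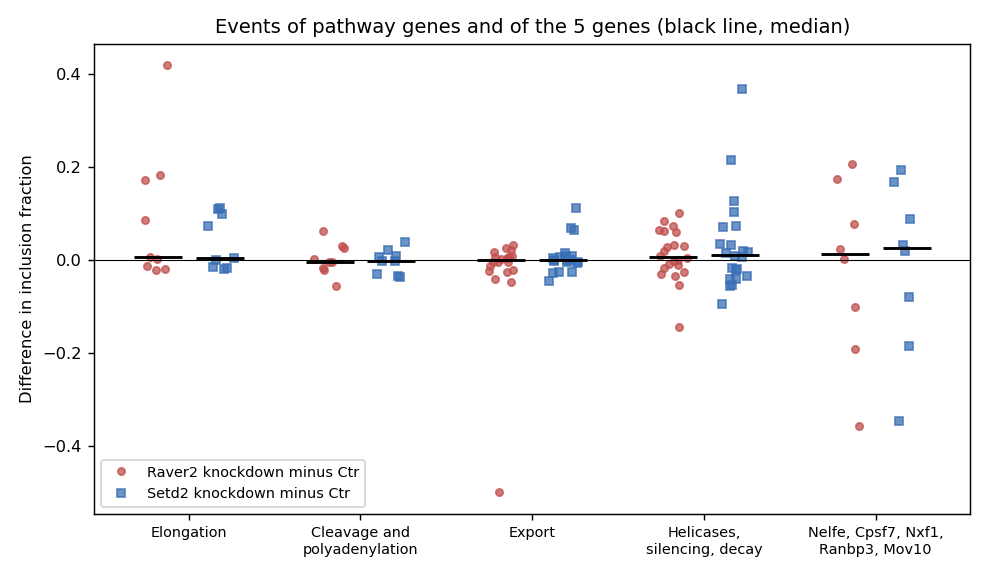
Difference in inclusion fraction from Ctr (vertical axis) for the events of 4 lists of pathway genes and, on the right, for the 8 events of the 5 genes, with circles for Raver2 knockdown, squares for Setd2 knockdown and black lines for medians. None of the 60 list events passed; the low circle in the export list is Nxf2 at -0.500, and the 5 genes were chosen with these values known, so the width of their spread is not a comparison.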

How the data were processed

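Total RNA of the sorted cells was amplified with a SMART-seq v4 kit and made into Nextera XT libraries, per the labels' protocols. The authors deposited 1 table per library with a gene symbol and an inclusion fraction for each event. The submitters' processing notes name Trimmomatic 0.39, TopHat2, Cufflinks and mm10; how the fraction was computed is not given in the sources used here, and depth is unknown. Events were matched by gene and row order in genes with equal event numbers in all 6 tables; 213 of 2898 genes were left out. At the same place in genes with several events, libraries correlated at 0.742 to 0.802, against 0.0863 to 0.133 after a shift by 1 place. This pooled check does not show that the order held in each gene. limma 3.58.1 (R 4.3.3) was run on the fractions of all 6 libraries, with group means as coefficients, a trend of variance with mean fraction and two-sided contrasts. SE values are moderated. The fit was also run on simulated data with independent normal noise and changes planted in mid-range events of low spread. That setting is easier than these data, and nothing is read from it here. Python 3.11.15, pandas 2.3.3 and matplotlib 3.10.9 made the summaries.

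The members, lists and rules were chosen with earlier results of these data known. The text names every event of the 5 genes, up to 2 genes per list and comparison by absolute moderated t, and the 2 nearest events per gene. Alternatives were another scale, no variance trend, fewer libraries or events, each library left out, and the hairpin number as a block.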

Additional observations from a re-analysis of the deposited data

Results flagged for a closer look

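Ranbp3 event 1 is listed because its Raver2 and Setd2 knockdown groups differed in the test of the difference itself: -0.0167 ± 0.00118 (SE), with 0.0226 in both Raver2 knockdown libraries and 0.0391 and 0.0395 in Setd2 knockdown libraries. As the gene was chosen with these values known, this is a description. Among the 60 list events, the knockdowns lay on opposite sides of both Ctr libraries in Nup98 event 1 and Srsf7 event 1, named here after their values were seen. The share of all events that do so was not counted, so nothing is read from this pattern. Nup98 event 1 lay below both Ctr libraries under Raver2 knockdown and above both under Setd2 knockdown. Its inclusion was 0.396 and 0.413 in Raver2 knockdown libraries, 0.463 and 0.472 in Setd2 knockdown libraries, and 0.461 and 0.442 in Ctr, and the difference between the knockdowns of -0.0624 did not pass (limma, adjusted p = 0.964). Srsf7 event 1 lay above both Ctr libraries under Raver2 knockdown and below both under Setd2 knockdown. It had 0.331 and 0.333 in Raver2 knockdown libraries, 0.313 and 0.321 in Setd2 knockdown libraries, and 0.324 and 0.325 in Ctr, and the difference between the knockdowns of 0.0151 did not pass (limma, adjusted p = 1).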

How the results depend on the processing

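Depth is unknown, so how far counting error limits each fraction is not known. Over all events, Raver2 knockdown against Ctr gave 113 calls, with 75 in a fit of only the 4 libraries compared, 10 among events from 0.01 to 0.99 and 38 among genes with 1 event. Leaving out a library gave 74 (without Setd2 knockdown library 2) to 291 calls (without Ctr library 1), with 280 without Ctr library 2. Setd2 knockdown against Ctr gave 104 calls, with 0 in a fit of only the 4 libraries (554 at an unadjusted p under 0.05), 6 among events from 0.01 to 0.99 and 37 among genes with 1 event. Leaving out a library gave 48 (without Raver2 knockdown library 2; 54 without library 1) to 279 calls (without Ctr library 1; 261 without library 2). Raver2 against Setd2 knockdown gave 34 calls, with 0 among events from 0.01 to 0.99 (107 at an unadjusted p under 0.05) and 12 among genes with 1 event. Leaving out a library gave 46 (Ctr library 1) to 119 calls (Raver2 knockdown library 1), with 56 without Ctr library 2, 97 without Raver2 knockdown library 2, and 67 and 106 without Setd2 knockdown libraries 1 and 2. With the hairpin number as a replicate block this comparison gave 0 calls (265 at an unadjusted p under 0.05) and lost Ranbp3 event 1. Over all events, deviations of the sh1 libraries from their group means correlated at 0.0146 between the knockdowns. With 2 libraries per group the sh2 deviations only mirror these. This value therefore cannot tell whether same-numbered libraries shared a culture. Some of these fits test fewer events or use fewer libraries; otherwise the cause was not tested. The list genes gave 0 calls in every fit. Against Ctr, each of the 8 events kept its sign in every fit it entered. This was largely fixed in advance, so nothing is read from it. Many of these fits leave the group means unchanged, and groups that do not overlap keep their sign when a library is left out. Between the knockdowns, 6 of the 8 changed sign when 1 library was left out, and those 6 were called in no fit.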
